A study of Homo sapiens with 3 samples.

Results

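The genes described here encode the interleukin-1 (IL-1) signalling route: the ligands IL1A, IL1B and IL18, the receptor chains IL1R1 and IL1RAP, the adaptor MYD88, the kinases IRAK1, IRAK2 and IRAK4, and the ubiquitin ligase TRAF6. They were found on the array as all probe sets whose only gene symbol in the platform annotation was one of these 10 names, which gave 17 of 54675 probe sets and 9 of the 10 genes. No probe set carried IRAK4 as its single symbol, and IRAK4 was not analysed here. The set was selected on results of these same arrays already known, the LATS2N against control ratios of IL1B and IRAK2 among them, so the values below are a description and were not tested.

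The study profiled an established human colorectal cancer cell line on 3 Affymetrix arrays, 1 per group. The groups were cells that received an empty-vector virus (control), a virus for full-length LATS2, a kinase of the Hippo pathway (LATS2), and a virus for residues 1 to 625 of that protein, which leave out its kinase domain (LATS2N). All 3 groups were virus-infected and were grown in medium with 10% serum. The sample labels name the line SW620, whereas the text on the series' design names SW480 with stable expression; the 2 lines come from the same patient, and which was used cannot be told apart here. The promoter driving the constructs and the number of clones are not given in the sources used here. With 1 array per group there is no spread between samples, and no difference below has a replicate check or a p-value.

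IL-1α and IL-1β, the products of IL1A and IL1B, bind the receptor chain IL1R1, which then recruits the accessory chain IL1RAP. The joined receptor tails assemble MYD88, IRAK4, IRAK1 and IRAK2, and TRAF6 passes the signal to the kinase TAK1 and on to NF-kB and the MAP kinases. IL-1β and IL-18 are made as inactive precursors that caspase-1 cleaves inside inflammasomes. In the gut, epithelial cells are known to answer IL-1 with chemokines that draw in neutrophils.

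The start-site sequences of 3 of these genes are shown because the first 2, IL1B and IRAK2, were the genes at least 2-fold higher on the LATS2N array than on control, and IRAK1 is the related kinase whose main probe set lay within 0.07 (log2) of control on both construct arrays. Each is the 250 bases before the RefSeq start site in GRCh38.p14, written 5′ to 3′ on the strand of the gene. IL1B lies at chr2:112836780-112837029 on the minus strand, IRAK2 at chr3:10164669-10164918 on the plus strand, and IRAK1 at chrX:154019903-154020152 on the minus strand. Capitals mark the letters ATAAAA (searched for as resembling the TATA box) and the GC box GGGCGG, on either strand.
IL1B: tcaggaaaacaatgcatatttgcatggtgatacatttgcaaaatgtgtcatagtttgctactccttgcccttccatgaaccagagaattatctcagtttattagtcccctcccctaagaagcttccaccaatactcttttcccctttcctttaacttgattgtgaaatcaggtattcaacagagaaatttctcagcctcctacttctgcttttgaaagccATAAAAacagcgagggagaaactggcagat
IRAK2: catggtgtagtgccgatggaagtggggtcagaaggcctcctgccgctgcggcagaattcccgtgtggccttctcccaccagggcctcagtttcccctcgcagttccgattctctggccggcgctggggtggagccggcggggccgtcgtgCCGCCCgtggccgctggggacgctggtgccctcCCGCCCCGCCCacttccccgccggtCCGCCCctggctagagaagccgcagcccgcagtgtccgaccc
IRAK1: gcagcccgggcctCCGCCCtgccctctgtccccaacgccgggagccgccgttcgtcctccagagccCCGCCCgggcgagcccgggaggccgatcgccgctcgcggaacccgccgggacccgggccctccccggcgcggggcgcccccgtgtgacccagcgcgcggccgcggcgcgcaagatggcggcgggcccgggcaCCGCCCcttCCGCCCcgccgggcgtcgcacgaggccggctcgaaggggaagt

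The windows differ in base composition. The G and C share was 40.0% for IL1B, 72.0% for IRAK2 and 82.4% for IRAK1. IL1B held 1 ATAAAA, from 30 to 25 bases before the start, and no GGGCGG, while IRAK2 and IRAK1 each held 4 GGGCGG matches and no ATAAAA. In IRAK2 a pair of these GC boxes overlaps by 1 base. Of 34788 distinct windows of this length in the RefSeq table, 14.9% held ATAAAA and 42.6% held GGGCGG. The kB consensus of NF-kB (in 5.21% of windows), the AP-1 letters TGANTCA (6.59%) and the TEAD letters GGAATG (11.9%), searched on both strands, were found in none of these 3 windows. These letters are a description of a short window and show neither binding nor its lack.

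The values are MAS5 signals, probe set intensities on a linear scale. Signals below a floor of 50.5, the median of all signals on the 3 arrays, were raised to it before log2 ratios were taken, and a gene was called, with no test, where the floored signals of 2 arrays were at least 2-fold apart. Where a gene had several probe sets, the one of highest mean log2 signal stood for it. As a measure of noise within the arrays, pairs of probe sets for the same gene gave a robust SD of the log2 ratio, which for LATS2N against control was 0.46 where the dimmer signal was 50 to 100, 0.35 at 100 to 200, 0.26 at 200 to 500, 0.16 at 500 to 2000 and 0.09 above 2000. This SD covers disagreement among probe sets, and the variation from culture to culture is not in it.

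The arrays had been brought to 1 scale, with a trimmed mean of 500.1 on each. The ratio of 3-prime to 5-prime signal was 1.02, 0.94 and 0.96 for GAPDH and 1.68, 1.74 and 1.85 for ACTB on the control, LATS2 and LATS2N arrays. The 2 LATS2 probe sets above the floor read 206 and 385 on control, 219 and 377 on LATS2, and 219 and 409 on LATS2N; whether they lie within the cloned sequence is not known here, so they do not check the labels. Of 9 colon epithelium markers, all reached the floor on at least 1 array, LGALS4 on LATS2 only. On LATS2, 6 of the 9 were above control and 3 below. EPCAM read 16608, 18744 and 18756 on control, LATS2 and LATS2N, while CDH1 (4421, 2792 and 3567) and VIL1 (5013, 3948 and 4666) were highest on control. Of 6 leukocyte and macrophage markers 4 reached the floor on at least 1 array, with a summed signal over the 6 of 323, 342 and 323. LYZ read 112, 107 and 138, above the floor on all 3 arrays, and CD14 read 73.5, 93.2 and 48.4. ITGAM read 40.4, 58.8 and 65.3, and CSF1R read 68.5, 48.0 and 47.6. The pan-leukocyte marker PTPRC stayed below the floor at 15.7, 19.7 and 15.8, as did CD163. Of 6 fibroblast markers 3 reached the floor on at least 1 array, with a sum of 1937, 2524 and 2357. COL1A2, COL3A1 and PDGFRB were below the floor on every array. Most of this sum was LUM (1519, 1884 and 1635) and COL1A1 (325, 596 and 607). The 2 probe sets of LUM differed in direction against control, and COL1A1 reached the floor with 1 of 5 probe sets. DCN read 57.3, 23.5 and 62.6, so the sum does not stand for fibroblast markers in general. Of 4 endothelial markers 1 reached the floor, with a sum of 206, 116 and 136. The ACTB ratio and the fibroblast sum were above control on both construct arrays, as IL1B and IRAK2 were, while the GAPDH ratio was below control on both. What part any of these had in the IL1B and IRAK2 values was not tested.

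**Figure D1:**
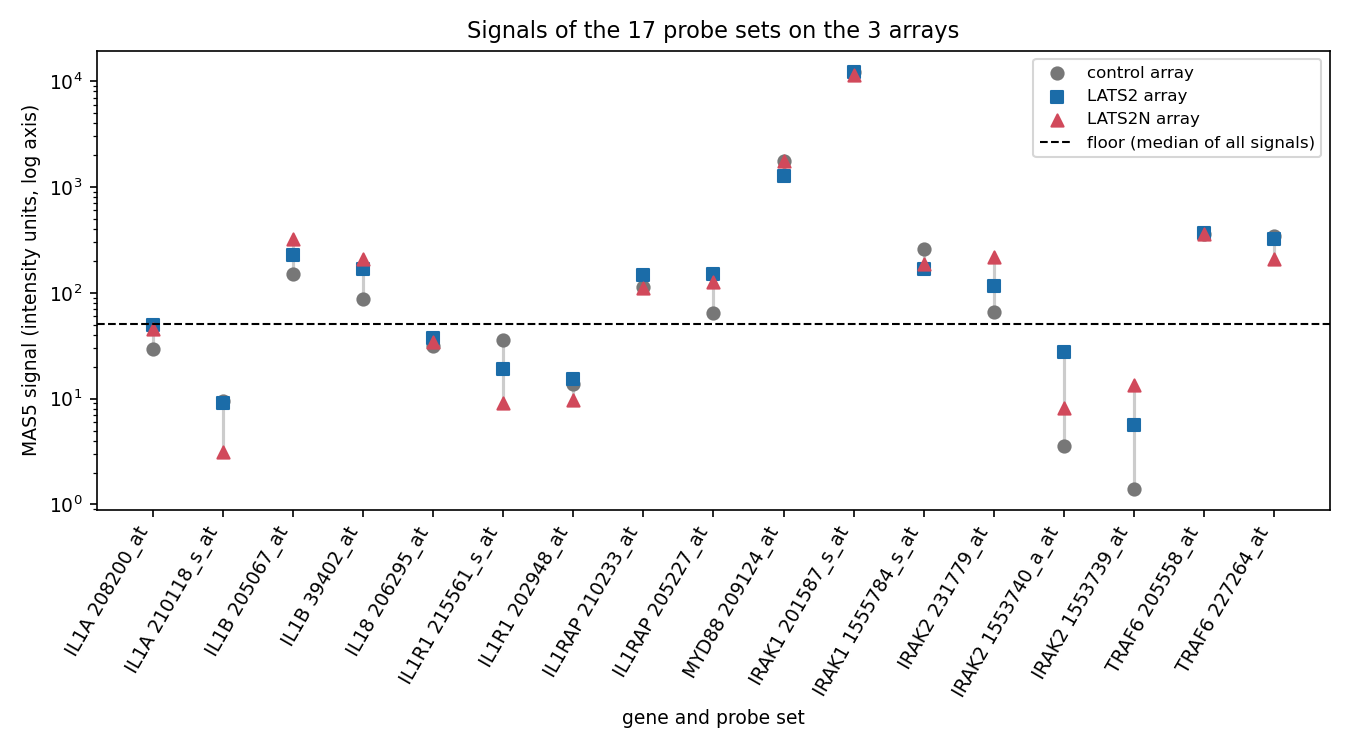
MAS5 signal (log axis) of each of the 17 probe sets on the control, LATS2 and LATS2N arrays, with the floor as a dashed line. Both IL1B probe sets and IRAK2 231779_at are lowest on control and highest on LATS2N, while IL1A, IL18, IL1R1 and the other IRAK2 probe sets lie below the floor on every array.

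Among the ligands, IL1B, the secreted pro-inflammatory cytokine, was the only gene measured above the floor. Its probe set 205067_at read 150 on control, 228 with LATS2 and 322 with LATS2N. Its other probe set, 39402_at, read 88.0, 166 and 207. Both probe sets thus gave the same order, control lowest and LATS2N highest. LATS2N was 2.15-fold above control by the first and 2.35-fold by the second, with log2 ratios of 1.10 and 1.23. Each of these ratios was more than 2 times the robust SD between probe sets at its signal, but IL1B was chosen with this contrast known, so that size is a description only. LATS2 was 1.53-fold above control by the first probe set and 1.89-fold by the second, with log2 ratios of 0.61 and 0.92, both under 2 times that SD, which was 0.35 and 0.47. Between the constructs IL1B was lower on LATS2 than on LATS2N, with log2 ratios of -0.50 and -0.31.

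IL1A and IL18 gave no ratio. IL1A, the cell-associated ligand, read 29.3, 49.6 and 45.6 on control, LATS2 and LATS2N with 208200_at, just under the floor on the construct arrays, and 9.49, 9.03 and 3.10 with 210118_s_at. IL18, which acts through its own receptor pair, read 31.1, 37.2 and 34.5. These values are not above the floor, and a transcript present at a low level would not be told from none.

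The receptor chain that binds IL-1, IL1R1, was also below the floor on all 3 arrays. Its probe set 215561_s_at read 35.7, 18.9 and 9.13 on control, LATS2 and LATS2N, and 202948_at read 13.7, 15.2 and 9.71. The accessory chain IL1RAP was above the floor with both of its probe sets, which did not give the same pattern. Probe set 210233_at, which represents the gene, read 113, 148 and 111. Probe set 205227_at read 65.1, 151 and 127, lowest on control. By 205227_at LATS2 was 2.31-fold and LATS2N 1.96-fold above control, against log2 ratios of 0.39 and -0.04 by 210233_at. The 2 probe sets differed by 0.83 in the log2 ratio of LATS2 against control and by 1.00 in that of LATS2N, so the response of IL1RAP to either construct depends on the probe set read. Which transcripts each probe set matches was not analysed here.

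MYD88, the adaptor that links the receptor to the IRAK kinases, was lowest on the LATS2 array. Its single probe set, 209124_at, read 1755 on control, 1268 with LATS2 and 1772 with LATS2N. LATS2 was 1.38-fold below control, a log2 ratio of -0.47 against a robust SD of 0.19 at this signal, and -0.48 against LATS2N. LATS2N and control differed by 0.01. The difference is short of the 2-fold call. Among 2239 genes of like signal (within 1.5-fold of the brighter one), 3.26% were at least as far below control on the LATS2 array.

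IRAK2, a kinase-family component of the IL-1 receptor complex whose gene is known to be inducible, gave the largest ratio of the genes described here. Probe set 231779_at read 66.5 on control, 116 with LATS2 and 216 with LATS2N. LATS2N was 3.25-fold above control, a log2 ratio of 1.70 where the robust SD between probe sets was 0.46. This ratio was the 4th highest of 13245 genes, and 4 of 1749 genes of like signal, IRAK2 included, reached it. IRAK2 was chosen with this ratio known, so its rank is a description only. LATS2 was 1.74-fold above control, a log2 ratio of 0.80 that 8.16% of genes of like signal reached or passed and that was under 2 times the robust SD of 0.47. Between the constructs the log2 ratio was -0.90, LATS2 below LATS2N.

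The IRAK2 values rest on 1 of 3 probe sets. The others were far below the floor, 1553740_a_at at 3.55, 27.6 and 8.23 and 1553739_at at 1.41, 5.65 and 13.5 on control, LATS2 and LATS2N. Control was the lowest array in each, but at these signals no ratio was taken. The control signal of 231779_at itself was 66.5 against a floor of 50.5. With the median over the probe sets in place of the brightest one, IRAK2 stayed below the floor and was no longer called.

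IRAK1, the kinase that TRAF6 binds after its phosphorylation, differed little between the arrays by its main probe set. Probe set 201587_s_at read 12073, 12307 and 11536 on control, LATS2 and LATS2N, with log2 ratios against control of 0.03 and -0.07. Probe set 1555784_s_at read 261, 167 and 187, with control highest, and log2 ratios of -0.65 and -0.48. Both of these exceed the robust SD at their signal (0.35) and neither reaches 2 times it, so IRAK1 showed no pattern shared by its probe sets for LATS2, and ratios below 0 by both for LATS2N.

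TRAF6, the ubiquitin ligase downstream of the IRAK kinases, was level on the 3 arrays by 205558_at, which read 363, 368 and 363 on control, LATS2 and LATS2N. The other probe set, 227264_at, read 344, 321 and 207, lower on the LATS2N array alone. Its log2 ratio there was -0.73, against 0.00 for 205558_at. The gene's 2 probe sets thus differed in the log2 ratio of LATS2N against control by 0.74 and in that of LATS2 by 0.12, and neither reached 2-fold.

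Counted as genes, 6 of the 9 reached the floor in each comparison. For LATS2N against control 2 of 6 were called higher, IL1B and IRAK2, where 0.944% of 13245 genes were called higher, and none was called lower, beside 0.566% of all genes. The genes were chosen with this contrast known, and nothing is read from that share. The median log2 ratio was 0.01 over the 6 and 0.02 over all genes. The other 4 genes lay between -0.07 and 0.01 by the probe sets that represent them, while the second probe sets of IL1RAP, IRAK1 and TRAF6 gave 0.97, -0.48 and -0.73. For LATS2 against control none of 6 was called in either direction, where 0.963% of 13186 genes were called higher and 0.842% lower. The median was 0.21 against 0.03 over all genes, with 5 of 6 above control, where 54.8% of all genes were. This excess rests on the settings: the median was 0.0066 with quantile normalisation and 0.077 with a common median signal, beside 0.023 and 0.081 over all genes, with 7 genes at the floor or above. For LATS2 against LATS2N none of 6 was called, where 1.59% of 13175 genes were called in either direction, and the median was -0.23 against 0.01 over all genes, but 0.0049 and 0.0081 under the same other scalings. The constructs share their control array, whose signal enters both ratios of a gene.

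**Figure D2:**
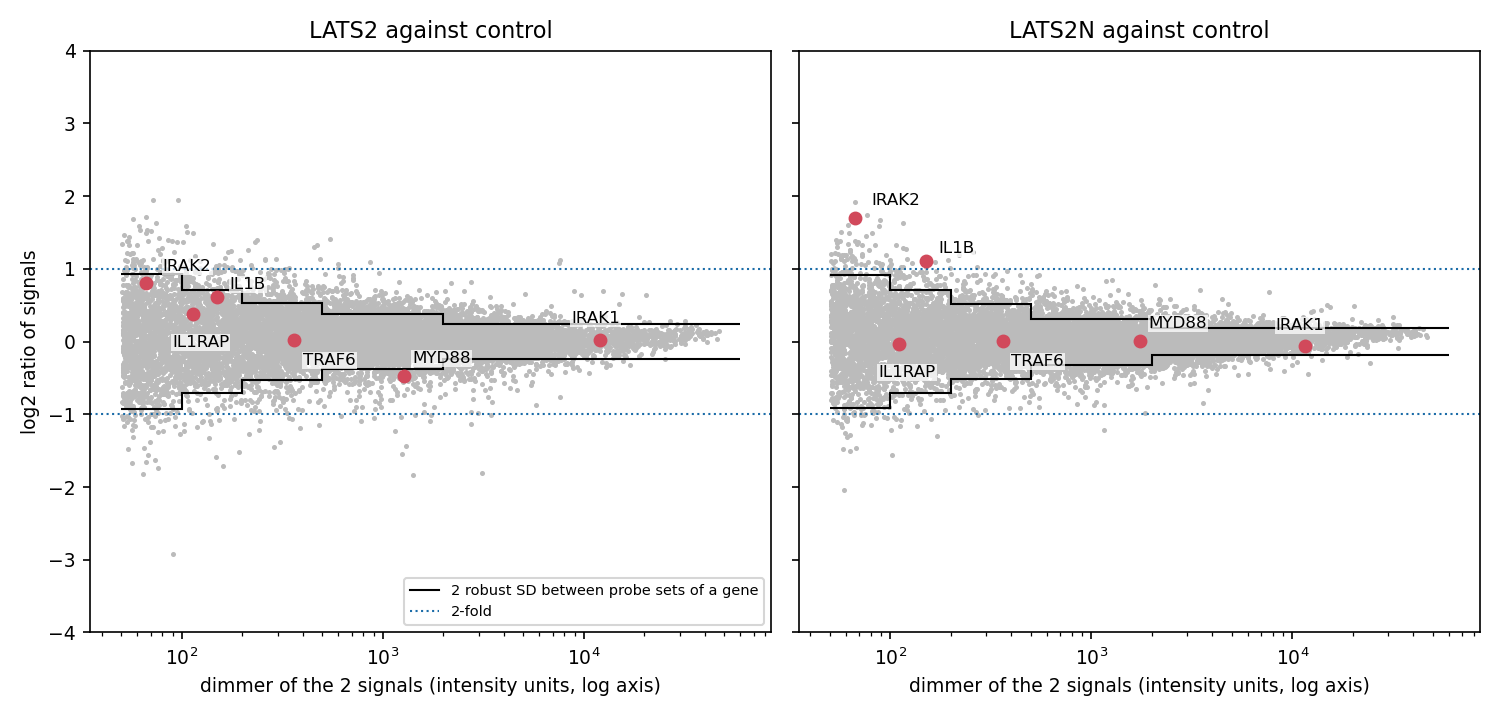
Log2 ratio against the dimmer of the 2 signals (log axis) for LATS2 against control (left) and LATS2N against control (right), for genes above the floor on both arrays (grey) and the 6 genes described here that are measured (red). Black steps are 2 robust SD between probe sets of a gene and dotted lines are 2-fold; on the right IRAK2 (1.70) and IL1B (1.10) lie above both, and on the left only MYD88 (-0.47) lies beyond the steps.

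Counted as probe sets, 10 of the 17 reached the floor. For LATS2N against control 3 of the 10 were at least 2-fold higher, both of IL1B and 1 of IRAK2, beside 0.932% of 29608 probe sets on the array. For LATS2 against control 1 of the 10 was, IL1RAP 205227_at, beside 1.11% of 29466 probe sets. For LATS2 against LATS2N none of the 10 passed 2-fold, beside 1.95% of 29338 in either direction.

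The rest of the route was read from lists of other family members, receptors, inflammasome genes, signalling steps and Toll-like receptors, in all 66 measured genes apart from those above. For LATS2 against control 1 of the 47 that reached the floor was called higher, and none of 45 for LATS2N against control or of 42 between the constructs. Over all genes 0.963% were called higher in the first of these comparisons, and 1.51% and 1.59% were called in either direction in the others, so these counts are near the background. The called gene was PELI2, an E3 ubiquitin ligase that binds IRAK kinases. It read 30.3 on control, 116 with LATS2 and 59.3 with LATS2N, at least 2.29-fold above control on the LATS2 array with the control below the floor. It was thus highest on LATS2, unlike IRAK2 and IL1B, and its other probe set stayed below the floor in that comparison.

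The other ligands and antagonists were near or below the floor. IL1RN, the secreted antagonist that occupies IL1R1, read 76.2, 32.3 and 17.1 on control, LATS2 and LATS2N, and IL18BP, which binds IL-18, read 76.2, 33.7 and 31.3. Each was at least 1.51-fold lower on both construct arrays, with signals below the floor there. For IL1RN this rests on 1 of 5 probe sets, the only one to reach the floor in these comparisons. IL18BP had 2 other probe sets that reached the floor on LATS2N and lay above control. IL37, an anti-inflammatory family member, read 88.0, 78.2 and 88.0, and IL36G stayed below the floor. IL1B was the 1 family ligand with 2 probe sets above the floor. IL18, IL33, IL36A, IL36G, IL36RN and IL1F10 have 1 probe set each and could not have had 2. Of IL1A, IL36B and IL37, with 2 probe sets each, IL37 had 1 that reached the floor and the others had none. In RefSeq order IL1B stands among 9 protein-coding genes of the family on chromosome 2 that run from IL1A to IL1RN. Of the 8 others, IL37 was above the floor on all 3 arrays, IL1RN and IL1F10 on the control array only, and the other 5 on none.

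Among the other receptors, SIGIRR, an inhibitory receptor of the family, read 2198, 2343 and 2471 on control, LATS2 and LATS2N. IL1R2, the decoy receptor that binds IL-1 without signalling, read 180, 201 and 143, and IL1RL1, the IL-33 receptor, read 66.8, 70.0 and 108. None of these was called, and neither was IL1RAPL1. Of the 6 genes of the receptor cluster on chromosome 2, from IL1R2 to IL18RAP, only IL1R2 and IL1RL1 were above the floor on any array.

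Genes that process the cytokines gave 9 of 14 members at the floor or above and no call in either construct. CASP1, which cleaves the IL-1β precursor and was named after its values were seen, read 53.6, 85.6 and 66.9 on control, LATS2 and LATS2N. Of its 5 probe sets only this 1, a probe set of possible shared targets, reached the floor. PYCARD, the inflammasome adaptor, read 191, 214 and 308, and GSDMD, which forms the pore for release, read 236, 349 and 411. Both were highest on LATS2N, with log2 ratios against control of 0.69 and 0.80. CASP8 and CARD8 had ratios between -0.29 and 0.00 on both arrays. The median of the list was 0.08 for LATS2 and 0.28 for LATS2N, beside 0.03 and 0.02 over all genes.

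None of the remaining proximal components was called, and the largest ratio among those measured was that of PELI3, related to PELI1 and named after its values were seen, which read 182 on control, 272 with LATS2 and 204 with LATS2N (log2 ratios of 0.58 and 0.16). PELI1, an IRAK-binding ubiquitin ligase, read 3142, 3077 and 3269, TOLLIP, which holds IRAK1 inactive, read 548, 555 and 599, and ECSIT, a TRAF6-binding adaptor, read 2042, 2251 and 2128. TIFA, another TRAF6-binding protein, read 1887, 1742 and 1950. IRAK3, an inhibitory family member named after its values were seen, stayed below the floor at 34.3, 29.8 and 19.1. Of the 3 IRAK genes on the array with a single symbol, IRAK2 was the 1 with a call.

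At the TAK1 and IKK step all 14 measured genes reached the floor and none was called. CHUK, the catalytic subunit IKKα, read 1897 on control, 1176 with LATS2 and 1753 with LATS2N, a log2 ratio of -0.69 for LATS2 against control, and was lowest on LATS2, as MYD88 was. UBE2N, which builds the ubiquitin chains that TRAF6 attaches, read 17135, 17734 and 19068. MAPK8, the kinase JNK1, had log2 ratios of -0.17 and 0.06, and TNIP1, an inhibitor that binds A20, -0.21 and 0.12. Toll-like receptors, which share MYD88 and the IRAK kinases, gave 7 of 11 measured members at the floor or above and no call. TICAM1, an adaptor of TLR3 and TLR4 that does not need MYD88, read 146, 283 and 209. Its log2 ratios against control were 0.95 for LATS2, just short of a call, and 0.52 for LATS2N. TLR2, TLR3 and TLR4 had log2 ratios against control between -0.25 and 0.73. The upper end was TLR4 on LATS2N, where 1 of its 2 probe sets that reached the floor went in that direction.

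**Figure D3:**
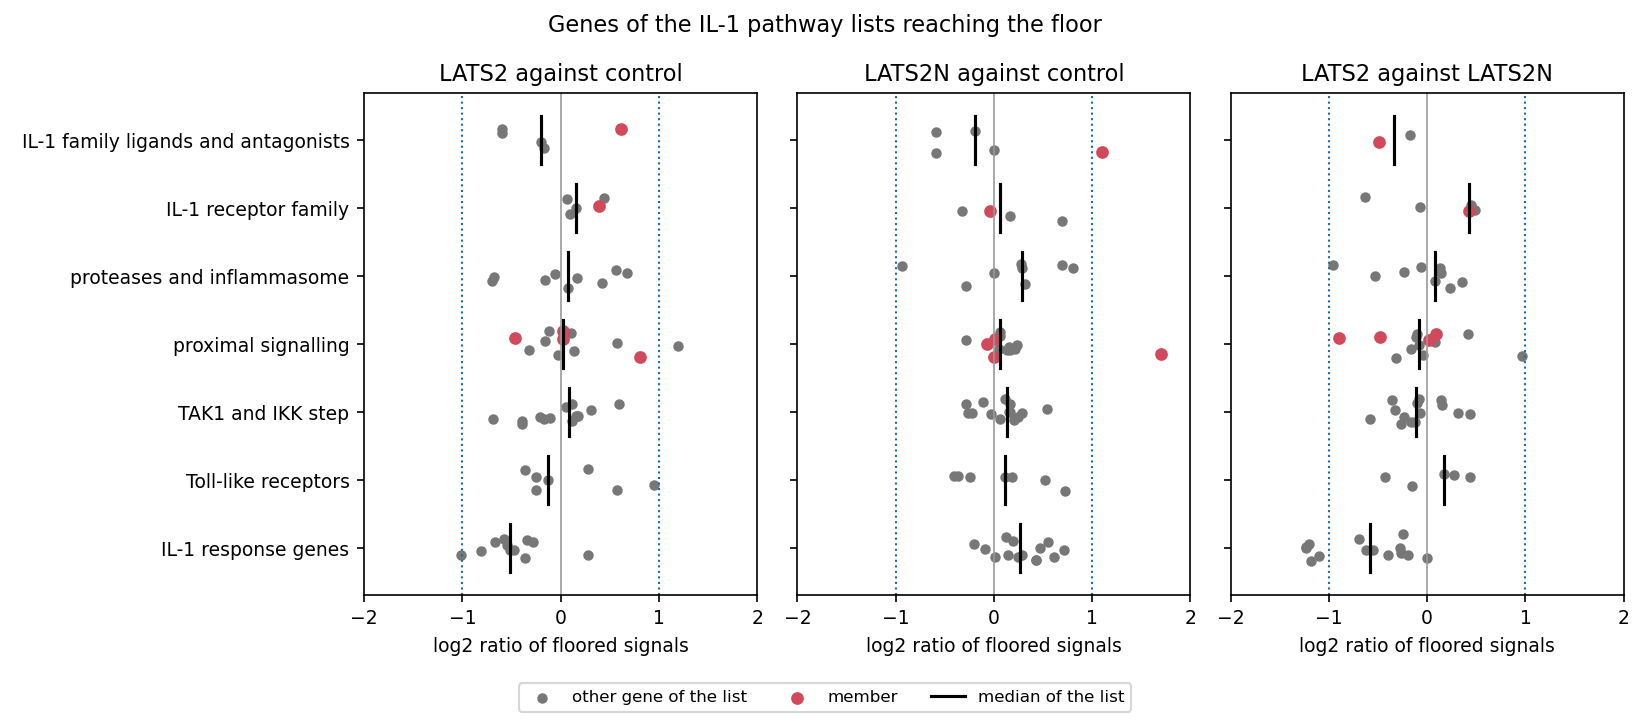
Log2 ratio of floored signals for each gene of 7 lists that reached the floor, in the 3 comparisons, with the genes described here in red, other genes in grey, each list's median as a bar and dotted lines at 2-fold. IL1B and IRAK2 stand right of the line in LATS2N against control, and the response genes lie left of 0 between the constructs.

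Genes that cells are known to raise in answer to IL-1 lay mostly below control on the LATS2 array and above it on the LATS2N array. Of 18 measured response genes 11 reached the floor in LATS2 against control, 10 of them below control, with a median log2 ratio of -0.52 and 1 call, CCL20 (2915 on control, 1446 on LATS2). Over all genes 54.8% were above control in that comparison, the median was 0.03 and 0.842% were called lower. In LATS2N against control 12 of 14 were above control, with a median of 0.27 and no call. Over all genes 53.6% were above control there, the median was 0.02 and 1.51% were called in either direction. The 2 below control on LATS2N were SOD2 (1066, 768 and 927 on control, LATS2 and LATS2N) and NFKBIZ (465, 361 and 438). Their log2 ratios for LATS2N were -0.20 and -0.09, and 1 of the 2 NFKBIZ probe sets went in that direction. NFKBIA (1297, 1068 and 1410) and CXCL6 (2289, 1811 and 2787) had ratios of 0.12 and 0.28 for LATS2N. Between the constructs all 14 were lower on LATS2, and 5 were called lower: TNFAIP3, CXCL1, CXCL3, CXCL8 and CCL20, with log2 ratios from -1.10 to -1.23. Over all genes 52.3% were higher on LATS2 than on LATS2N and 1.00% were called lower. CXCL5, CCL2 and LCN2 reached the floor on the LATS2N array only, so the floor fixed their direction in both LATS2N comparisons. The 12 of 14 above control and the 14 lower on LATS2 include them. TNFAIP3, which encodes the feedback inhibitor A20, read 561, 353 and 756 on control, LATS2 and LATS2N, and CXCL3 read 847, 484 and 1139. This list overlaps gene lists already known to differ on these arrays and is no independent evidence of direction. On the LATS2 array IL1B (0.61) and IRAK2 (0.80) were thus above control while most response genes were below it, and MYD88 (-0.47) and CHUK (-0.69) were below it too. The IL1B and IRAK2 ratios were both under 2 times the robust SD between probe sets (0.35 and 0.47). ICAM1 (0.28) was the response gene above control, with 1 of its 3 probe sets in that direction.

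The genes nearest to IRAK2 and IL1B in pattern were found by the distance over the 2 log2 ratios against control, among 11533 genes above the floor on all 3 arrays. Nearest to IRAK2 were TSACC (87.5, 160 and 264 on control, LATS2 and LATS2N), TMEM176B (116, 225 and 358), SIX5, ACSF2 and PDE5A, at distances from 0.13 to 0.45. Only TSACC and TMEM176B lay within 0.25 of IRAK2. Nearest to IL1B were KCNIP4, MAP4K3-DT, RAB3A, SLC22A7 and IL15, at distances from 0.02 to 0.07, and 39 genes lay within 0.25. For LATS2N against control the ratio of IRAK2 was the 4th highest of all genes and that of IL1B the 83rd. The counts of genes within 0.25 are thus not separate from the size of the ratios. With 3 arrays such a likeness rests on 2 values that share the control array.

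**Figure D4:**
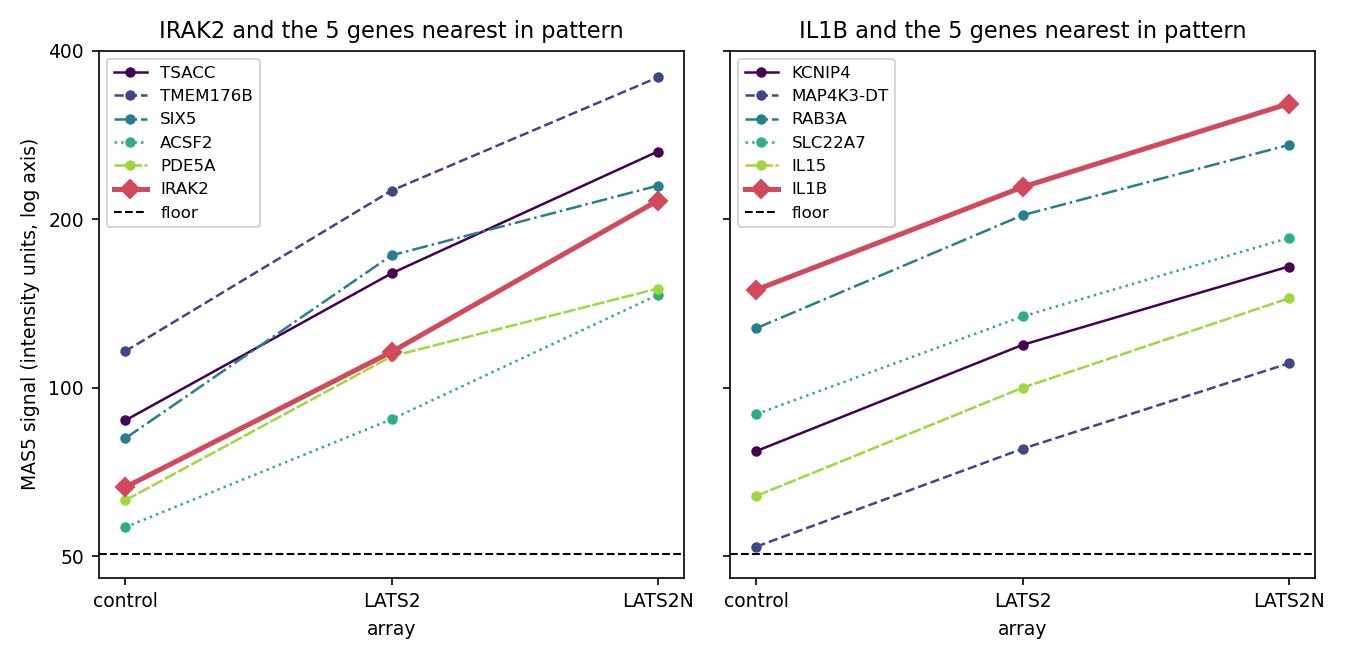
MAS5 signal (log axis) of IRAK2 (left, red) and IL1B (right, red) and of the 5 genes nearest to each in pattern, on the control, LATS2 and LATS2N arrays; lines join the signals of 1 gene and the dashed line is the floor. All 12 genes are lowest on control and highest on LATS2N, with control signals from 52.1 to 150.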

How the data were processed

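The authors' deposited values are MAS5 signal intensities per probe set on a linear scale, per the submitters' processing notes (version and settings not given in the sources used here); 6 ug of total RNA was labelled per array, per the labels' protocols. A trimmed mean (2% off each end) of 500.1 on every array shows the common scaling. Probe sets were named through the platform's probe table, with 1 symbol for 41091 of 54675, several for 1801, and symbols updated to the RefSeq table of GRCh38.p14 for 41037; those with several symbols or none, and 62 manufacturer's controls, were left out of the gene results, leaving 19775 genes. Ratios, calls and spreads were computed in Python 3.11.15 with numpy 2.4.6 and pandas 2.3.3 and were tested on simulated data. No test exists with 1 array per group, and the number of arrays limits the precision. The genes, lists and rules were chosen with earlier results of these arrays known. All probe sets of the 9 genes are named; of each list, every called gene and up to 4 more of highest mean signal; and the 5 genes nearest in pattern to IRAK2 and IL1B. CDH1, VIL1, LGALS4, CXCL5, CCL2, LCN2 and ICAM1 were named after their values were seen. PTPRC, COL1A2, COL3A1 and CD163 were also named outside that rule. TATA-like and GC box letters were chosen after the sequences were seen. Alternatives were other floors, size thresholds, probe set choices and scalings. RefSeq start sites were found for 9 of the 10 genes, all but IL18.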

Additional observations from a re-analysis of the deposited data

How the results depend on the processing

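The call of IL1B and IRAK2 on the LATS2N array held with the floor at the 25th percentile of signals or none (where IL1R1, below the main floor, was also called, lower, which made 3), without probe sets of possible shared targets, and under both other scalings. It fell from 2 genes to 0 with the floor at the 75th percentile (360), which lies above all of their signals, to 1 with the median over probe sets (IL1B) and to 1 at a 3-fold threshold (IRAK2). At a 1.5-fold threshold LATS2 against control gave 2 genes (IL1B and IRAK2) in place of 0, and LATS2 against LATS2N gave 1 (IRAK2) in place of 0. With no floor that last comparison gave 1 (IL1R1), and its median over the genes moved from -0.23 to 0.093 with no floor and with the floor at the 25th percentile, where 9 genes enter in place of 6. That median was also 0.0049 with quantile normalisation, 0.0081 with a common median signal, 0.020 with the floor at the 75th percentile, -0.037 with the median over probe sets and -0.48 without probe sets of possible shared targets, so neither its size nor its sign is stable. For LATS2 against control the median went from 0.21 to 0.0066, 0.077, 0.021, -0.040 and 0.39 under the same settings. Of 111 single-gene ratios under the alternatives 104 moved by less than the robust SD between probe sets, and the other 7 all came from the median over probe sets, in IL1RAP, IRAK1 and TRAF6. Many of the 104 could not move, because another floor or the removal of other probe sets left the same signals in the ratio. IRAK2 under the median over probe sets gave no ratio and is not among the 111. The count is thus no measure of stability. A ratio changed sign in 7 of the 111, in none of which the gene was called. Leaving out a replicate could not be done with 1 array per group. No paired analysis was possible because each group has 1 array. IRAK2 was measured on control near the floor, and IL1A, IL18 and IL1R1 could not be measured above it.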
